A study of Mus musculus with 21 samples.

Results

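The D-type cyclins Ccnd1, Ccnd2 and Ccnd3 and 6 inhibitors of cyclin-dependent kinases were followed across all treatments of cultured mouse lung fibroblasts. The inhibitors were Cdkn1a, Cdkn1b and Cdkn1c of the CIP/KIP family and Cdkn2a, Cdkn2b and Cdkn2c of the INK4 family. They were chosen by gene symbol, make up 9 of the 52636 genes in the count table, and all 9 passed the filter on low counts that left 16197 genes for testing. The cells were Ly6C+/Sca-1+ fibroblasts, stromal cells that carry these surface antigens, and RNA was measured by total RNA sequencing of bulk cultures. The 21 libraries fell into 7 groups of 3: DMSO, CHIR, TGFb1, TGFb1 + DMSO, TGFb1 + CHIR, TGFb1 + IL1b and TGFb1 + TNF. DMSO is a solvent, TGFb1 a cytokine known for driving matrix production in fibroblasts, and IL1b and TNF are inflammatory cytokines. The compound is named in the labels only as CHIR. Doses, times, culture conditions, the age or strain of the animals and whether libraries of a group came from separate cultures or animals were not given in the sources used here, so p-values measure the spread between these libraries, which may be technical. Every group consists of cells grown in vitro, and no group without any addition was among the samples.

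As background, D-type cyclins bind CDK4 and CDK6 and lead to phosphorylation of the retinoblastoma protein, which frees E2F factors to switch on genes of DNA replication. INK4 proteins bind CDK4 and CDK6 directly and keep the cyclins from them. CIP/KIP proteins bind whole cyclin-kinase complexes, chiefly those of CDK2, and TGFb family signals are known to act on several inhibitors of both kinds in epithelial cells. In fibroblasts the same genes are read as marks of proliferation, arrest and senescence.

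Library totals ran from 19796379 to 29276382 counts. Within groups no library repeated another: the mean chi-square per gene between libraries of a group was 3.19 to 9.69, where about 1 is sampling noise. The mitochondrial share of counts was 0.962% to 1.17% in the 3 CHIR libraries and 0.296% to 0.591% in the other 18. Levels are given as CPM, counts scaled to a common library size with trimmed mean factors. All 9 fibroblast markers were detected in every group, while Ptprc, Adgre1 and Cd3e, which mark leukocytes, macrophages and T cells, were at 0 in all 7 groups. The immune cell markers summed to 1.41 to 6.65 CPM, with Cd68 or Csf1r the highest in each group, and the 7 epithelial markers summed to at most 0.538 CPM. The summed fibroblast markers, led by the collagen gene Col1a1, moved with treatment, from 22701 to 23779 CPM with TGFb1 + TNF up to 74423 to 82767 CPM with TGFb1 + CHIR. Single markers did not all follow that sum. Its mean was 36209.0 CPM with DMSO and 59642.5 CPM with TGFb1 + DMSO. By the test used below, 3 of the 9 markers were higher and 6 lower between these groups (median log2 difference -1.09). For TGFb1 + CHIR against CHIR, 3 were higher and 5 lower. Mural markers summed to 504 to 529 CPM with TGFb1 + TNF and to 1264 to 1299 CPM with CHIR. Most of the latter sum was from 1 gene, Pdgfrb, at a mean of 1227.1 CPM, while Cspg4 was the highest with TGFb1 + TNF at 272.5 CPM. Mesothelial markers stayed between 8.87 and 30.0 CPM, mostly from Wt1 in each group. Endothelial markers stayed between 1.31 and 21.6 CPM, the top of these from Kdr with TGFb1 + CHIR. Their part in the members' changes was not tested. In bulk samples, fewer cells of a state and less RNA per cell cannot be told apart, and this holds for every change below.

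Ccnd1, on chr7:144929931-144939925 of GRCm38, encodes the cyclin most often described as a sensor of growth signals. It had 75.5, 91.5 and 97.4 CPM in the DMSO libraries and 22.3, 20.2 and 19.1 CPM with CHIR. With TGFb1 + DMSO it had 47.5, 53.5 and 54.4 CPM, and with TGFb1 + CHIR 17.0, 20.3 and 15.6 CPM. Both CHIR groups thus lay below every library without CHIR. With TGFb1 alone it read 76.3, 84.1 and 83.3 CPM, with TGFb1 + IL1b 88.4, 87.8 and 90.1 CPM, and with TGFb1 + TNF 151.7, 147.8 and 149.6 CPM. The TNF libraries were the highest of all 21, and the range from the lowest to the highest group mean was 8.48-fold. In order, TGFb1 + CHIR, CHIR, TGFb1 + DMSO, TGFb1, DMSO, TGFb1 + IL1b and TGFb1 + TNF, the step from TGFb1 to DMSO and that from DMSO to TGFb1 + IL1b did not pass the test (adjusted p = 0.157 and 0.889 by edgeR's quasi-likelihood test).

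Ccnd2, on chr6:127125162-127152193, was the most abundant of the 3 and the only D cyclin higher with CHIR than with DMSO. DMSO libraries held 447.9, 496.9 and 500.1 CPM and CHIR libraries 652.2, 669.3 and 675.4 CPM. TGFb1 alone gave 492.3, 554.4 and 588.3 CPM, TGFb1 + DMSO 510.1, 513.5 and 525.6 CPM, and TGFb1 + CHIR 471.2, 500.9 and 432.4 CPM. In the order TGFb1 + CHIR, DMSO, TGFb1 + DMSO and TGFb1 no step between neighbours passed the test (adjusted p = 0.0887 to 0.509), but groups farther apart in it did, as given with the comparisons below. TGFb1 + IL1b raised the level to 755.1, 793.7 and 807.0 CPM and TGFb1 + TNF to 968.8, 983.7 and 1029.3 CPM, with no overlap between these groups or with CHIR below them.

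Ccnd3, on chr17:47505051-47599691, moved against Ccnd2 in several groups. Libraries read 22.1, 25.3 and 25.1 CPM with DMSO, 18.9, 15.9 and 18.0 CPM with CHIR, and 47.1, 40.0 and 39.4 CPM with TGFb1. With TGFb1 + DMSO they read 37.0, 34.6 and 37.6 CPM, with TGFb1 + CHIR 26.5, 24.6 and 32.1 CPM, with TGFb1 + IL1b 36.1, 32.5 and 33.3 CPM, and with TGFb1 + TNF 21.6, 20.3 and 20.9 CPM. TGFb1 was thus the highest group and TGFb1 + TNF lay below all DMSO libraries. Ccnd3 shares 361 exonic bases with Bysl on the opposite strand, a gene of like depth (16355 counts in all against 15784), and an 881-base stretch at 96.3% identity with the pseudogene Ccnd3-ps, which held 874 counts. No source used here states the strand setting of the counting, so reads from such partners cannot be told apart, and the Ccnd3 values are uncertain to that extent. Ccnd1 shares 1100 exonic bases with LTO1 on the opposite strand, which held 6176 counts against 39795.

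Among the CIP/KIP genes, Cdkn1a (chr17:29090976-29100727) encodes p21, the classical target of p53. DMSO libraries held 13.3, 14.4 and 12.2 CPM and CHIR libraries 29.3, 30.0 and 29.1 CPM. TGFb1 alone gave 49.3, 57.1 and 52.5 CPM, TGFb1 + DMSO 41.0, 49.7 and 42.4 CPM, and TGFb1 + CHIR 52.6, 48.3 and 49.2 CPM. Every treatment thus lay above DMSO. TGFb1 + IL1b gave 84.4, 82.6 and 79.1 CPM and TGFb1 + TNF 95.6, 90.1 and 92.0 CPM, a 6.94-fold range over the groups. In the order of means, TGFb1 + CHIR and TGFb1 were the neighbours that did not pass the test (adjusted p = 0.351). Both RefSeq promoter windows of Cdkn1a (250 bases before the start, GRCm38.p6, plus strand) are shown because the gene was higher in all 6 other groups than with DMSO. Capitals mark, in the first, matches to the p53 consensus decamer, searched after the windows were seen and present in 7.13% of the 32851 windows of that table, and in 0.0639% (21 windows) as a pair up to 13 bases apart, as here. In the second they mark the SMAD-binding letters (CAGACA on the other strand, 136 bases before the start, present in 17.1% of all windows).
Cdkn1a, chr17:29090729-29090978: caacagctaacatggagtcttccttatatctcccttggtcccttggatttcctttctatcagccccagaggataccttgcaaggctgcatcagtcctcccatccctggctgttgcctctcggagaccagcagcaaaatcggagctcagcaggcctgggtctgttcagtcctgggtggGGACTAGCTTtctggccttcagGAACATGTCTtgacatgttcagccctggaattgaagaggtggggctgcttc
Cdkn1a, chr17:29093519-29093768: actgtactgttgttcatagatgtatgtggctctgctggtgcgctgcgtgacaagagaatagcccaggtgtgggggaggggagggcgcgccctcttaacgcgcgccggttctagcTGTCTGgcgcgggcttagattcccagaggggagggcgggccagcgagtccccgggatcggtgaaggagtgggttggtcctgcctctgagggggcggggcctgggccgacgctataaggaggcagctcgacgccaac
A match describes letters only and was not tied to any change here.

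Cdkn1b (chr6:134920401-134925513) encodes p27, a brake on CDK2 in resting cells, and its libraries fell into 3 tiers. The upper tier was DMSO with 160.6, 146.0 and 151.4 CPM and CHIR with 154.0, 168.2 and 156.1 CPM, which overlapped. The middle tier held TGFb1 at 107.2, 96.2 and 98.7 CPM, TGFb1 + DMSO at 94.1, 100.0 and 101.2 CPM, TGFb1 + CHIR at 92.3, 95.5 and 97.9 CPM and TGFb1 + IL1b at 93.6, 90.6 and 96.4 CPM. No neighbours within it passed the test (adjusted p = 0.472 to 0.793). TGFb1 + TNF stood alone at the bottom with 72.6, 70.4 and 70.0 CPM.

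Cdkn1c (chr7:143458339-143461050) encodes p57, an imprinted inhibitor expressed from the maternal copy and known from tissue growth control. DMSO libraries held 13.9, 12.7 and 13.9 CPM and CHIR libraries 5.89, 7.15 and 5.26 CPM. Every TGFb1 group lay far lower, with 41, 23 and 6 counts per library for TGFb1, 5, 16 and 12 for TGFb1 + DMSO, 11, 8 and 11 for TGFb1 + CHIR, 22, 20 and 31 for TGFb1 + IL1b and 2, 5 and 6 for TGFb1 + TNF, against 408, 377 and 343 for DMSO. In CPM the means of those groups were 0.902 ± 0.637, 0.393 ± 0.18, 0.454 ± 0.0918, 0.881 ± 0.207 and 0.16 ± 0.0784 (SD, n = 3). No library with TGFb1 reached the lowest without it, while differences among the TGFb1 groups rest on so few counts that their standard errors on the log2 scale were 0.33 to 0.54. Cdkn1c shares 625 exonic bases with Gm44732 on the opposite strand, which held 58 counts in all against 1801. Reads from that gene cannot be told apart, so the low counts with TGFb1 are uncertain to that extent.

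**Figure D1:**
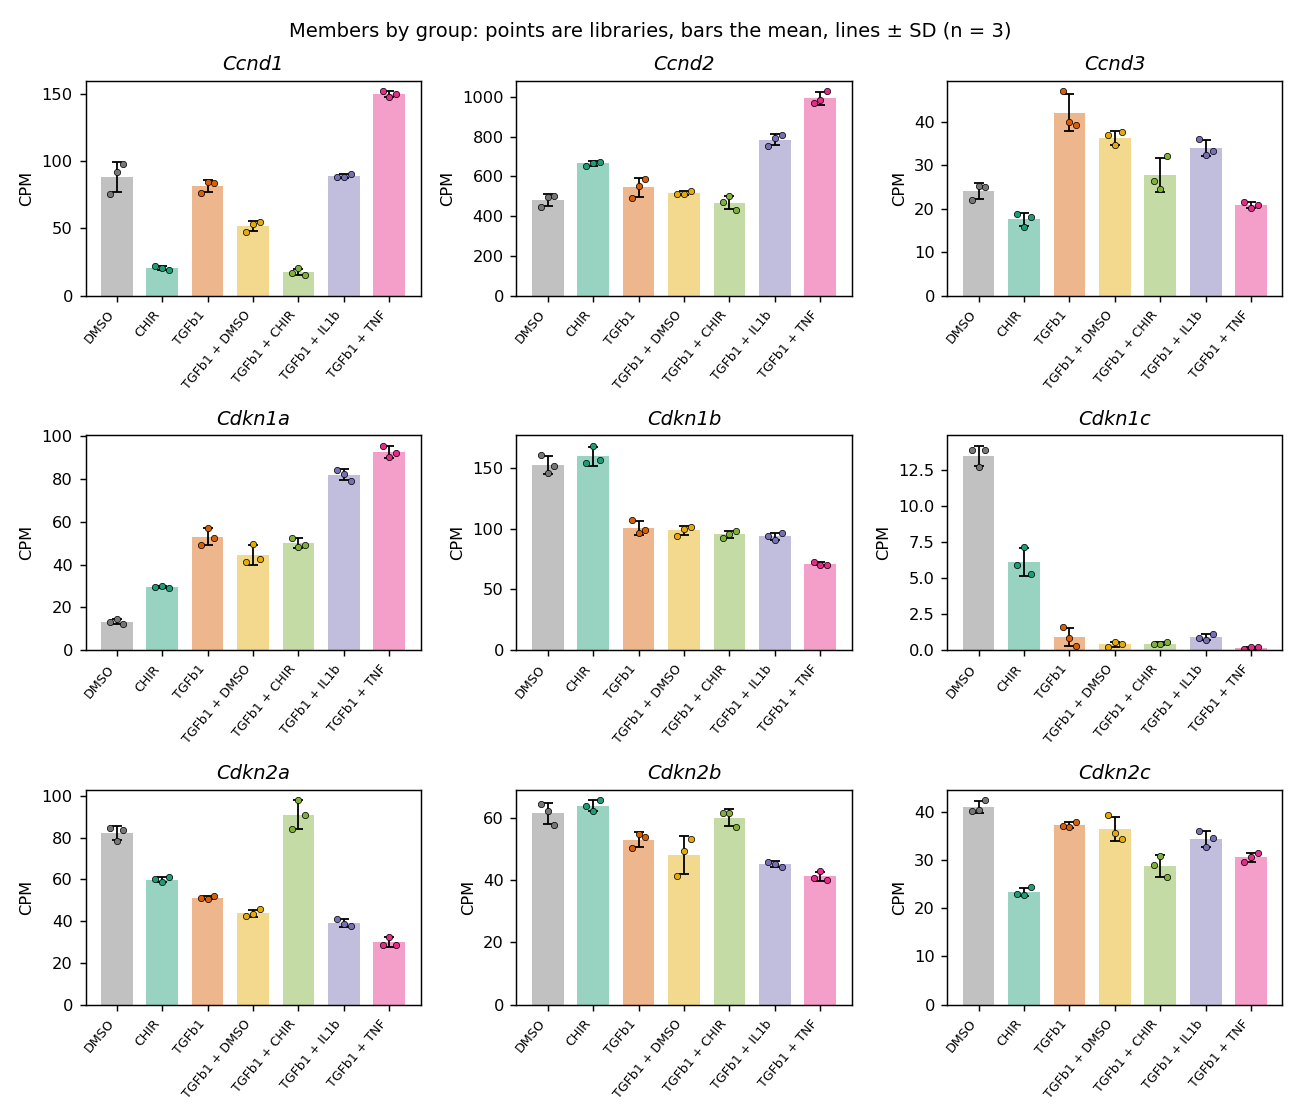
Level in CPM (vertical axes, linear from 0, a scale for each gene) of the 9 genes in the 7 groups; points are libraries, bars means and lines ± SD (n = 3). Ccnd1 is lowest in both CHIR groups, Cdkn1c is near 0 in the 5 groups with TGFb1, and Cdkn2a is highest with TGFb1 + CHIR at a mean of 90.9 CPM.

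Of the INK4 genes, Cdkn2a and Cdkn2b are neighbours on chromosome 4, 11645 bases apart and on the same strand. Cdkn2a encodes p16Ink4a and, from a start site farther upstream and in another frame, p19Arf, which acts on p53. One count per gene does not separate these products. The windows of 250 bases before the 2 Cdkn2a starts and the Cdkn2b start (RefSeq, GRCm38.p6, minus strand, written in the direction of transcription) are shown because these genes changed together in several comparisons, and because they show how unlike the 2 Cdkn2a starts are: the upstream window, which is that of Arf, has 78.4% G and C and 40 CpG sites, the other 60.0% and 7, and that of Cdkn2b 53.6% and 12, against medians of 52.4% and 6 over all windows. Motifs searched on both strands were CAGACA for SMAD factors and TGACTCA for AP-1 (in 4.46% of all windows), the E-box CACGTG (6.02%) and the E2F letters TTTCGCG, and also CTTTGAA for TCF/LEF (4.46%) and the TATA box TATAAA (12.4%). None of these 6 has its letters in the 3 windows, so no capitals appear.
Cdkn2a upstream start, chr4:89294620-89294869: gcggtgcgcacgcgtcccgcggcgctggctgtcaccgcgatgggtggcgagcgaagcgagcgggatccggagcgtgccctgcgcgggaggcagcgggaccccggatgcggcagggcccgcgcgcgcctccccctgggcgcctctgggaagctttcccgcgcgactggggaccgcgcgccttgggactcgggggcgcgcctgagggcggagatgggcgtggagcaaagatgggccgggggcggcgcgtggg
Cdkn2a downstream start, chr4:89282193-89282442: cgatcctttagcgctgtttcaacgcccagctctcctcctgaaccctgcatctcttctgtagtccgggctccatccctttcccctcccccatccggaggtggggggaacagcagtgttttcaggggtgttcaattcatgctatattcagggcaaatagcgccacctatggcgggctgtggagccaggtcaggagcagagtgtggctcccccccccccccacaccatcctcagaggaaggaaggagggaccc
Cdkn2b, chr4:89311033-89311282: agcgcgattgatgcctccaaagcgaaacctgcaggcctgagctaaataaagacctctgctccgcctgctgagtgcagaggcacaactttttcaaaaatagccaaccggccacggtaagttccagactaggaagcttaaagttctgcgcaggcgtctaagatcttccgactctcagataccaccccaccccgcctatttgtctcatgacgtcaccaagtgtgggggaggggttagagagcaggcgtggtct
The absence of these letters says nothing of the factors that bind there.

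Cdkn2a (chr4:89274471-89294653) read 84.7, 78.6 and 83.6 CPM with DMSO and 60.0, 58.7 and 60.9 CPM with CHIR. TGFb1 alone gave 51.1, 50.7 and 51.9 CPM and TGFb1 + DMSO 42.3, 43.4 and 45.7 CPM, but TGFb1 + CHIR gave 83.9, 97.9 and 91.0 CPM. Each agent alone went with a lower level, and TGFb1 and CHIR together with one that overlapped DMSO. TGFb1 + IL1b libraries read 41.1, 38.4 and 37.7 CPM and TGFb1 + TNF libraries 28.7, 32.5 and 28.4 CPM. All neighbours in the order of the 7 means passed the test (adjusted p = 1.91e-06 to 0.0334 outside the step from CHIR to DMSO at 6.79e-09), although DMSO and TGFb1 + CHIR overlapped.

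Cdkn2b (chr4:89306299-89311039), which encodes p15 and is a known TGFb target in epithelial cells, varied least, by 1.55-fold over the groups. It read 64.4, 62.1 and 57.6 CPM with DMSO, 63.8, 62.2 and 65.6 CPM with CHIR, and 50.2, 54.7 and 53.9 CPM with TGFb1. TGFb1 + DMSO gave 41.3, 49.3 and 53.2 CPM and TGFb1 + CHIR 61.5, 61.6 and 57.0 CPM. DMSO overlapped both CHIR and TGFb1 + CHIR, which did not overlap each other, and these 3 groups lay above the other 4. The lowest levels were 45.9, 45.1 and 44.1 CPM with TGFb1 + IL1b and 40.6, 42.9 and 40.0 CPM with TGFb1 + TNF. Of 6 steps in the order of means, only that from TGFb1 to TGFb1 + CHIR passed (adjusted p = 0.0217).

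Cdkn2c (chr4:109660876-109667189) encodes p18, a known E2F target among the INK4 genes. Libraries read 40.3, 40.4 and 42.5 CPM with DMSO and 22.9, 22.8 and 24.4 CPM with CHIR. TGFb1 gave 37.1, 36.9 and 38.0 CPM, TGFb1 + DMSO 39.4, 35.7 and 34.5 CPM, and TGFb1 + CHIR 29.1, 30.9 and 26.5 CPM. The CHIR groups were the lowest, as for Ccnd1. TGFb1 + IL1b stood between, at 36.0, 32.8 and 34.6 CPM, and TGFb1 + TNF at 29.7, 30.7 and 31.5 CPM overlapped TGFb1 + CHIR. The window before its inner start is shown because it held the single E2F match among the 10 windows found for 6 of the 9 genes, in capitals 200 bases before the start, with the SMAD letters 189 bases before it. The E2F letters occur in 0.703% of all windows.
Cdkn2c inner start, minus strand, chr4:109665373-109665622: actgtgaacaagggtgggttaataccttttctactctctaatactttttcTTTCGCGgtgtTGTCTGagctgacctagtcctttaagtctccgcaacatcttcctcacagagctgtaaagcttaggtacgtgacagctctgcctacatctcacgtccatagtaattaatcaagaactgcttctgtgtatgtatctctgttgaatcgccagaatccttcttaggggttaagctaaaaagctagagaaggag
Its outer window, with 77.2% G and C, held none of the 6 motifs.

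Genes within a family were compared per kilobase of merged exons (RPKM), a measure that depends on which transcripts the annotation lists. Ccnd2 led the D cyclins in every group, with 70.5% ± 1.35 of their summed RPKM with DMSO and 91.7% ± 0.677 with CHIR (SD, n = 3). The share of Ccnd1 went from 25.7% ± 1.38 with DMSO to 5.66% ± 0.515 with CHIR, while the summed level was 72.7 ± 5.7 and 77.1 ± 0.848 RPKM. That sum was lowest with TGFb1 + CHIR, at 56.7 ± 3.7 RPKM, and highest with TGFb1 + TNF, at 139.8 ± 3.24 RPKM. Within CIP/KIP, Cdkn1b held 76.4% ± 0.612 with DMSO and 37.4% ± 0.358 with TGFb1 + TNF, where Cdkn1a held 62.4% ± 0.388 against 8.57% ± 0.902 with DMSO. The CIP/KIP sum itself stayed within 34.3 ± 1.96 (TGFb1 + DMSO) and 46.3 ± 2.24 RPKM (CHIR), so that the leading inhibitor differed more between groups than the family total. The INK4 sum ran from 66.5 ± 3.04 RPKM with TGFb1 + TNF to 131.5 ± 6.86 with TGFb1 + CHIR, and Cdkn2a held 38.3% ± 1.16 of the first and 59.0% ± 2.14 of the second. TGFb1 + TNF thus had the highest D cyclin sum and the lowest sum of these 3 INK4 genes. The fourth INK4 gene, Cdkn2d, is not among the 9 and not in that sum. Its mean was 7.26 RPKM with DMSO, 4.61 with CHIR, 19.9 with TGFb1 and 12.4 with TGFb1 + TNF.

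**Figure D2:**
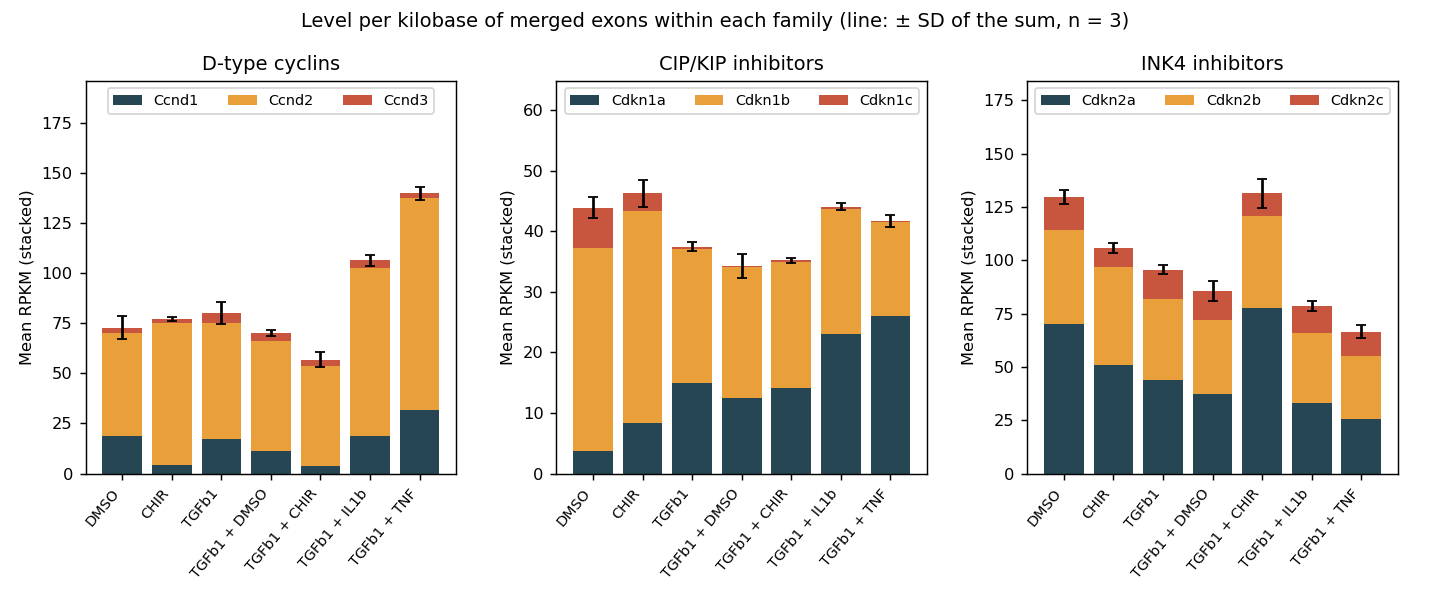
Mean RPKM (vertical axes, linear from 0) stacked by gene within each family for the 7 groups; lines are ± SD of the summed level (n = 3). Ccnd2 forms most of each D cyclin bar, Cdkn1a takes the place of Cdkn1b from DMSO to TGFb1 + TNF, and the INK4 bars are highest with DMSO (129.7 RPKM) and TGFb1 + CHIR (131.5 RPKM).

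The first comparison asked what TGFb1 did with solvent present, TGFb1 + DMSO against DMSO. Among the inhibitors in the 9 genes, Cdkn1a rose and the others fell, Cdkn1c farthest, while Cdkn2d, outside the 9, rose by 1.44 ± 0.084. Of the 9 genes 8 passed the test at an adjusted p under 0.05, 2 higher and 6 lower, where 62.0% of all genes passed (30.7% higher and 31.3% lower), so the count alone does not set them apart. Cdkn1c fell by 5.06 ± 0.29 on the log2 scale (estimate ± SE), 33.4-fold (adjusted p = 4.21e-21). Cdkn1a rose by 1.73 ± 0.075 (3.32-fold, adjusted p = 1.51e-26), Cdkn2a fell by 0.91 ± 0.061, Cdkn1b by 0.63 ± 0.05 and Cdkn2b by 0.36 ± 0.066. Cdkn2c fell by 0.17 ± 0.069 (adjusted p = 0.0308), a call lost without DMSO replicate 3 (0.159), TGFb1 + DMSO replicate 2 (0.0988) or TGFb1 + DMSO replicate 3 (0.219), and with no filter on low counts (0.171). Ccnd2 at 0.10 ± 0.051 did not pass (adjusted p = 0.0887) but did without DMSO replicate 3 (0.0324), with no filter (0.00381) and in a fit of these groups alone (0.0341). Ccnd3 rose by 0.59 ± 0.084, and Ccnd1 fell by 0.77 ± 0.073 (adjusted p = 2.05e-11). For Ccnd1 the choice of control mattered: TGFb1 without solvent against DMSO gave -0.12 (adjusted p = 0.157), for Cdkn2c -0.14 (0.0814) and for Ccnd2 0.18 (0.00303), and for Cdkn1c it gave -3.84.

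Among the genes that act with the D cyclins, their own kinases moved little, Cdk4 by 0.11 ± 0.04 (adjusted p = 0.018), while Cdk6 at -0.04 ± 0.066 did not pass. Of 10 genes, 8 kinases and partner cyclins with the INK4 inhibitor Cdkn2d and the phosphatase gene Cdc25a, 7 rose, both of the latter included, and 1 fell, with a median log2 difference of 0.66 against -0.02 over all genes. Ccne1, the cyclin of CDK2 at the start of S phase, rose by 2.13 ± 0.12, Ccne2 by 1.58 ± 0.11 and Cdkn2d by 1.44 ± 0.084. Of 13 retinoblastoma and E2F genes 7 rose and 3 fell, with E2f7 at 1.15 ± 0.092 and E2f1 at 1.05 ± 0.068. Of 20 S phase and mitosis genes 19 rose and none fell, by a median of 0.79, among them the checkpoint kinase gene Bub1 (1.63 ± 0.076) and Rrm2 (1.34 ± 0.071), a subunit of the enzyme that makes deoxynucleotides. Of 16 p53 pathway genes 8 rose and 6 fell: Pmaip1, a cell death gene, rose by 3.87 ± 0.097 and Plk2 by 1.73 ± 0.049, while the antiproliferative genes Btg2 and Trp53inp1 fell by 3.53 ± 0.15 and 1.71 ± 0.095. Cdkn1a therefore rose together with replication genes and with part of the p53 list. Among 16 regulators of turnover and transcription 4 rose and 7 fell, with the largest change in Mxd1, at -1.5 ± 0.12, and Cebpb at -0.95 ± 0.17. Skp2 and Fbxw7, receptors of ubiquitin ligases that act on p27 and cyclin E, were at 0.89 ± 0.068 and 1.19 ± 0.072.

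CHIR against DMSO, the response to the compound without TGFb1, lowered Ccnd1 and raised Ccnd2. Of the 9 genes 7 passed, 2 higher and 5 lower, where 44.8% of all genes passed (22.1% and 22.7%). Ccnd1 fell by 2.10 ± 0.081 (4.27-fold, adjusted p = 5.49e-22), Ccnd3 by 0.46 ± 0.09 and Cdkn2c by 0.81 ± 0.072 (adjusted p = 6.46e-14). Ccnd2 rose by 0.47 ± 0.051 and Cdkn1a by 1.14 ± 0.077 (2.20-fold, adjusted p = 5.38e-18). Cdkn1c fell by 1.14 ± 0.21 and Cdkn2a by 0.46 ± 0.06. Cdkn1b and Cdkn2b did not pass: both differences were 0.06, with 95% intervals of -0.04 to 0.17 and -0.08 to 0.20. The mitochondrial share was 0.962% to 1.17% with CHIR and 0.561% to 0.591% with DMSO, and with mitochondrial and rRNA genes left out the same 7 passed, Ccnd1 at -2.10. All 20 S phase and mitosis genes fell with CHIR, by a median of 2.32 on the log2 scale, with the proliferation marker Mki67 lower by 3.01 ± 0.1 and Ccnb1, the mitotic cyclin, by 3.23 ± 0.23. Ccna2, the S phase cyclin, fell by 2.86 ± 0.084, the largest change in the list of kinases, partner cyclins, Cdkn2d and Cdc25a, of whose 10 genes 7 fell and none rose. E2f8 and E2f7, repressive E2F members, fell by 2.92 ± 0.12 and 2.46 ± 0.12. The p53 list split, with 6 genes higher and 7 lower: Gadd45a rose by 0.87 ± 0.066, while Btg2 fell by 4.99 ± 0.17 and Gdf15 by 1.42 ± 0.21. Myc, a driver of Ccnd2 in other systems, fell by 0.92 ± 0.051, and Klf4, which is known to act on Cdkn1a, by 2.15 ± 0.059.

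**Figure D3:**
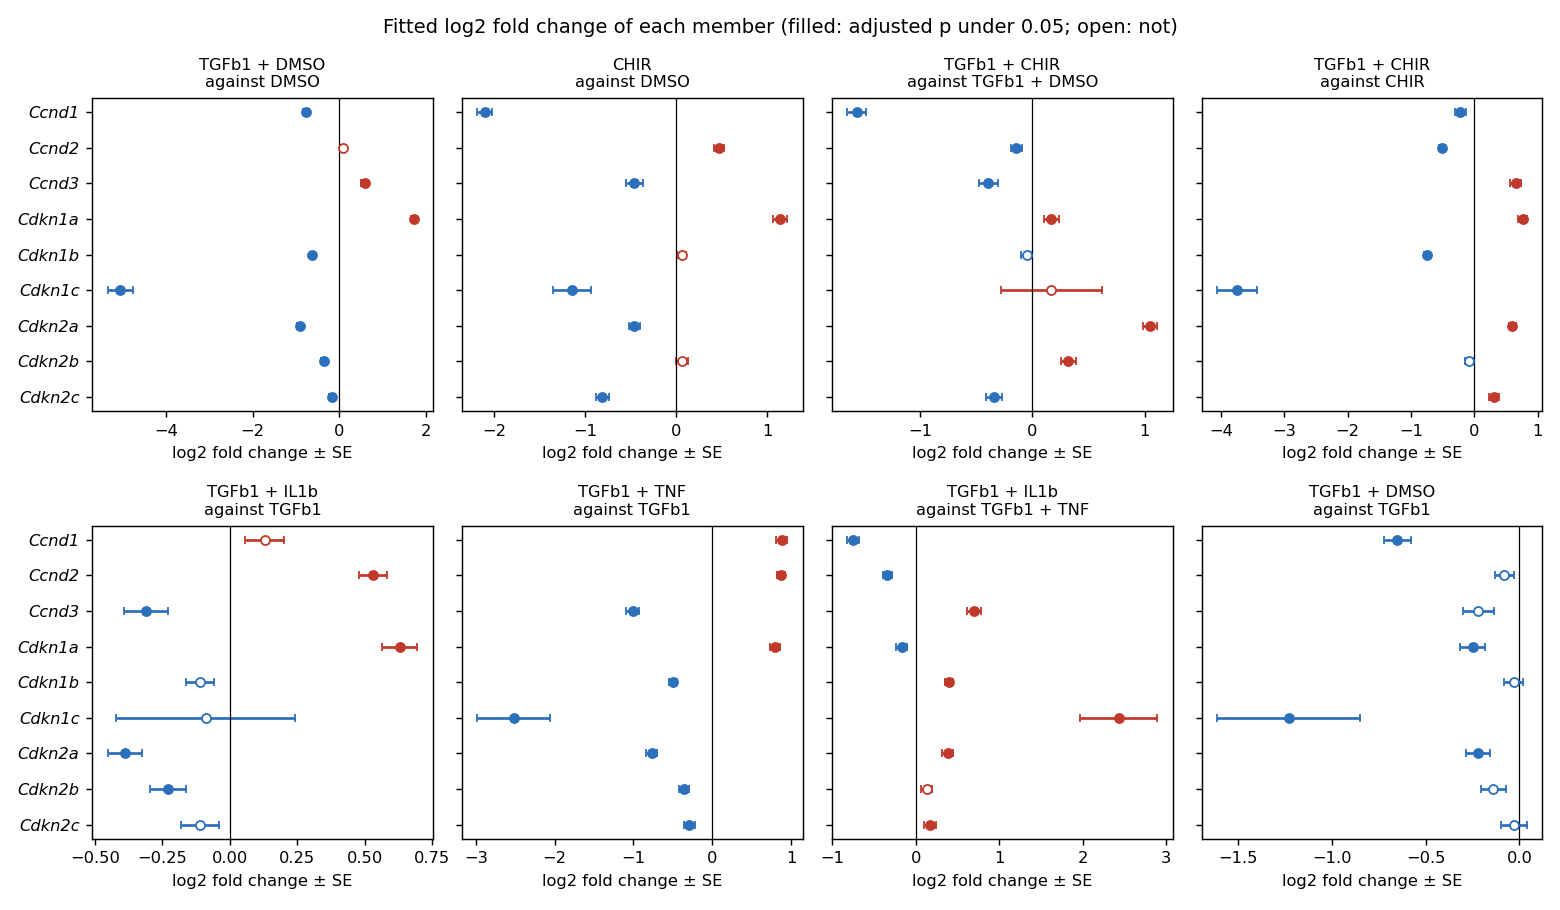
Fitted log2 fold change ± SE (horizontal axes, a scale for each panel) of the 9 genes in 8 comparisons; red is higher and blue lower in the first named group, and filled points have an adjusted p under 0.05. Cdkn1c at -5.06 and Cdkn1a at 1.73 mark the TGFb1 response, and all 9 points are filled for TGFb1 + TNF against TGFb1.

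TGFb1 + CHIR against TGFb1 + DMSO set the compound against solvent with TGFb1 in both groups. The D cyclins fell, all 3 of them, while Cdkn2a and Cdkn2b rose. In all 7 of the 9 genes passed, 3 higher and 4 lower, where 43.3% of all genes passed (20.8% and 22.5%). Ccnd1 fell by 1.56 ± 0.085 (2.94-fold, adjusted p = 1.62e-17) and Ccnd3 by 0.39 ± 0.085. Cdkn2a rose by 1.05 ± 0.061 (2.07-fold, adjusted p = 1.62e-20), Cdkn2b by 0.32 ± 0.067, and Cdkn2c fell by 0.34 ± 0.072. Cdkn1b (-0.05 ± 0.051) and Cdkn1c (0.17 ± 0.45) did not pass. The changes of Ccnd2 (-0.14 ± 0.051, adjusted p = 0.0249) and Cdkn1a (0.17 ± 0.067, adjusted p = 0.0311) were small: that of Ccnd2 was lost without TGFb1 + CHIR replicate 1 (0.0522), TGFb1 + CHIR replicate 3 (0.191) or TGFb1 + DMSO replicate 3 (0.0877), and that of Cdkn1a without TGFb1 + CHIR replicate 1 (0.173), TGFb1 + DMSO replicate 1 (0.203) or TGFb1 + DMSO replicate 3 (0.142), and under 3 other settings (0.056 to 0.0726). Against TGFb1 without solvent, Cdkn1a stood at -0.08, Cdkn1c at -1.06 and Ccnd1 at -2.20. Of the 20 S phase and mitosis genes 19 fell here too, by a median of 0.70, led by the replication gene Mcm5 (-1.24 ± 0.068). Of 13 retinoblastoma and E2F genes 8 fell and none rose, with Tfdp2, an E2F partner, lower by 1.51 ± 0.074.

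Whether CHIR acted differently with and without TGFb1 was tested as an interaction, the second difference less the first. Of the 9 genes 7 passed, 5 with a positive and 2 with a negative value, where 41.2% of all 16197 genes tested passed, 3397 with a positive value and 3284 (20.3%) with a negative one. Cdkn2a had the largest such value on the positive side, 1.51 ± 0.086 (adjusted p = 8.88e-21): CHIR went with a fall in one setting and a rise in the other. Ccnd1 gave 0.54 ± 0.12 and Cdkn2c 0.47 ± 0.1, where falls from TGFb1 + DMSO were smaller than those from DMSO. Cdkn2b gave 0.27 ± 0.093, where only the rise with TGFb1 passed. Cdkn1c gave 1.31 ± 0.51 (adjusted p = 0.0329), from -1.14 ± 0.21 without TGFb1 and 0.17 ± 0.45, which did not pass, with it. The latter rests on 33 counts in all with TGFb1 + DMSO and 30 with TGFb1 + CHIR, where a further fall could hardly be measured. Cdkn1a gave -0.97 ± 0.1 (adjusted p = 2.68e-11) and Ccnd2 -0.61 ± 0.073, where the rise with CHIR alone was not matched with TGFb1. Cdkn1b (-0.11, 95% interval -0.26 to 0.04) and Ccnd3 (0.06, -0.20 to 0.33) did not pass. The call for Cdkn2b was lost without DMSO replicate 1 (adjusted p = 0.0535) or TGFb1 + DMSO replicate 1 (0.127), and that for Cdkn1c without CHIR replicate 3 (0.0566), TGFb1 + CHIR replicate 1 (0.0536), TGFb1 + CHIR replicate 3 (0.114) or TGFb1 + DMSO replicate 1 (0.118) and by limma voom (0.0581). The interaction was not fitted with TGFb1 without solvent in place of TGFb1 + DMSO. Against that control, CHIR on TGFb1 stood at -2.20 for Ccnd1, -1.06 for Cdkn1c and 0.18 for Cdkn2b. Those values lie nearer to -2.10, -1.14 and 0.06 for CHIR against DMSO, so these interaction values depend on the control. Cdkn2a stood at 0.83, Cdkn1a at -0.08 and Ccnd2 at -0.22, and Cdkn2c stayed within -0.39 to -0.28 under all settings. Of the 20 S phase and mitosis genes 16 had a positive interaction and none a negative one, with a median of 1.52 against 0.03 over all genes.

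**Figure D4:**
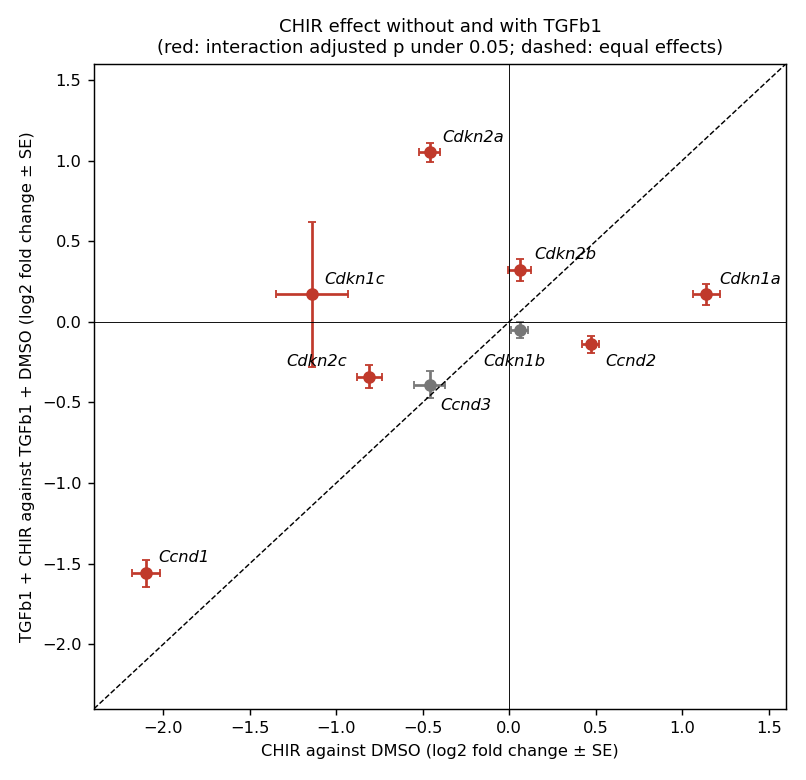
Log2 fold change ± SE of CHIR with TGFb1 in both groups (vertical axis) against that without (horizontal axis); red marks an interaction with an adjusted p under 0.05, grey none, and the dashed line is equality. Cdkn2a lies in the upper left, at -0.46 without and 1.05 with TGFb1, while Ccnd1 is in the lower left under both.

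TGFb1 + CHIR against CHIR set TGFb1 against none with the compound in both groups. It shares its TGFb1 + CHIR libraries with the comparison of CHIR on TGFb1, so values are set side by side only. Of the 9 genes 8 passed, 4 higher and 4 lower, where 66.2% of all genes passed (33.8% and 32.3%). Cdkn1c fell by 3.75 ± 0.31 (13.5-fold, adjusted p = 2.82e-15), Cdkn1b by 0.75 ± 0.05 and Ccnd2 by 0.51 ± 0.052. Cdkn1a rose by 0.76 ± 0.07, Ccnd3 by 0.65 ± 0.09, Cdkn2a by 0.60 ± 0.061 and Cdkn2c by 0.31 ± 0.075. Cdkn2a and Cdkn2c therefore had the opposite sign to the response within solvent, where they were at -0.91 and -0.17. Ccnd1 fell by 0.22 ± 0.093 (adjusted p = 0.0323), which did not hold without CHIR replicate 1 (0.18), CHIR replicate 2 (0.0553), TGFb1 + CHIR replicate 1 (0.121) or TGFb1 + CHIR replicate 3 (0.191) nor by limma voom (0.0802), and Cdkn2b at -0.09 ± 0.066 did not pass. All 20 S phase and mitosis genes rose, by a median of 2.28, with Rrm2 higher by 3.98 ± 0.1. The mean of Ccnd1 was lowest with TGFb1 + CHIR among the 7 groups, at 17.6 CPM against 20.5 with CHIR, but the libraries of these groups overlapped. Ccna2 rose by 2.93 ± 0.084 and Ccne1 by 1.99 ± 0.14.

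**Figure D5:**
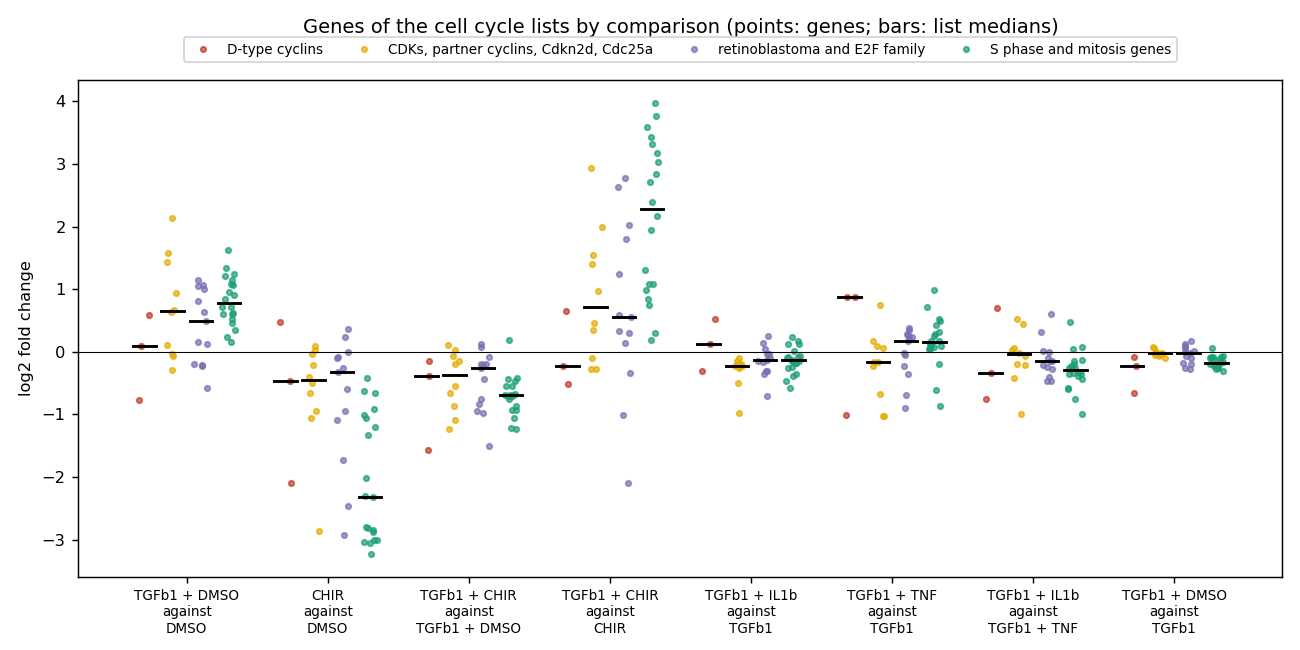
Log2 fold change (vertical axis) of single genes (points) in 4 lists for 8 comparisons, with list medians as bars. S phase and mitosis genes have medians of -2.32 for CHIR against DMSO and 2.28 for TGFb1 + CHIR against CHIR, where the 3 D cyclins have medians of -0.46 and -0.22.

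Adding IL1b to TGFb1, against TGFb1 alone, raised Ccnd2 and Cdkn1a and lowered Ccnd3, Cdkn2a and Cdkn2b. These 5 were the genes that passed of the 9, where 34.6% of all genes passed (17.2% higher and 17.4% lower). Cdkn1a rose by 0.63 ± 0.065 (1.55-fold, adjusted p = 1.44e-11) and Ccnd2 by 0.53 ± 0.051 (adjusted p = 2.37e-10). Cdkn2a fell by 0.39 ± 0.063, Ccnd3 by 0.31 ± 0.082 and Cdkn2b by 0.23 ± 0.067. Ccnd1 was at 0.13 ± 0.072 (95% interval -0.02 to 0.28), Cdkn1b at -0.11 ± 0.051, Cdkn1c at -0.09 ± 0.33 and Cdkn2c at -0.11 ± 0.07, none past the threshold. Cdkn1b passed under 5 other settings, with adjusted p of 0.0409 to 0.0487, and Ccnd1 in a fit of these groups alone (0.0461). Against TGFb1 + DMSO instead, Ccnd1 stood at 0.78 (adjusted p = 5.27e-11) and Cdkn1c at 1.13 (0.0144), and neither Ccnd3 (-0.10) nor Cdkn2b (-0.09) passed. Of 20 S phase and mitosis genes 9 fell and 1 rose, by a median of -0.14, and of the 10 kinases, partner cyclins, Cdkn2d and Cdc25a 8 fell, Cdkn2d by 0.24 ± 0.078 and Ccne2 by 0.97 ± 0.1. In the p53 list 8 rose and 5 fell: Gdf15, a stress cytokine, rose by 1.89 ± 0.17, Gadd45a by 1.27 ± 0.064 and Bbc3, which promotes cell death, by 0.94 ± 0.15, beside the rise of Cdkn1a. Cebpb, a factor induced by inflammatory signals, rose by 1.72 ± 0.17.

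With TNF added to TGFb1 all 9 genes passed, 3 higher and 6 lower, where 56.6% of all genes passed (27.7% and 28.8%). Ccnd1 rose by 0.88 ± 0.071 (1.84-fold, adjusted p = 3.06e-13), Ccnd2 by 0.87 ± 0.051 (1.82-fold, adjusted p = 1.87e-16) and Cdkn1a by 0.80 ± 0.065 (1.75-fold, adjusted p = 1.08e-15). Ccnd3 fell by 1.01 ± 0.085, Cdkn2a by 0.77 ± 0.065, Cdkn1b by 0.50 ± 0.051, Cdkn2b by 0.36 ± 0.067 and Cdkn2c by 0.29 ± 0.071. Cdkn1c fell by 2.52 ± 0.46 from 70 counts in the 3 TGFb1 libraries to 13 in those with TNF, and in a fit of these groups alone it gave no value while the other 8 passed. Against TGFb1 + DMSO instead, Ccnd1 stood at 1.53 and Cdkn1c at -1.29. Cdk6, a kinase partner of the D cyclins, rose by 0.75 ± 0.065, from 78.4 ± 6.48 to 131.9 ± 1.34 CPM, while Ccne1 and Ccne2 each fell by 1.03 ± 0.11 and Cdkn2d by 0.68 ± 0.08. Of 20 S phase and mitosis genes 10 rose and 3 fell, by a median of 0.15, with the licensing gene Cdt1 at 0.99 ± 0.083 and Tk1 at -0.86 ± 0.13. Rbl2, the retinoblastoma relative of resting cells, fell by 0.90 ± 0.064 and Rb1 rose by 0.38 ± 0.088. Of 16 p53 pathway genes 7 rose and 6 fell, with a median of 0.04. Gdf15 rose by 2.79 ± 0.16 and Gadd45a by 1.49 ± 0.064, while Sesn1 fell by 0.98 ± 0.089. Myc, of the turnover and transcription list, rose by 0.66 ± 0.048. The summed fibroblast markers were also lowest in the TNF libraries, as given above, and their part in these values was not tested.

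The cytokines were compared directly as TGFb1 + IL1b against TGFb1 + TNF, and 8 of the 9 genes passed, 5 higher with IL1b and 3 higher with TNF, where 47.6% of all genes passed (24.7% and 22.8%). Higher with TNF were Ccnd1, with a log2 difference of -0.75 ± 0.07 (adjusted p = 2.59e-11), Ccnd2 (-0.34 ± 0.051) and Cdkn1a (-0.17 ± 0.063, adjusted p = 0.0187). Ccnd3 (0.70 ± 0.085), Cdkn1b (0.40 ± 0.051), Cdkn2a (0.38 ± 0.065) and Cdkn1c (2.43 ± 0.46) were higher with IL1b. The Cdkn1c value rests on few counts, 73 in all with TGFb1 + IL1b and 13 with TGFb1 + TNF. The Cdkn1a call was lost without TGFb1 + IL1b replicate 3 (0.092) or TGFb1 + TNF replicate 1 (0.0795). Cdkn2c (0.17 ± 0.07, adjusted p = 0.0399) lost its call without TGFb1 + IL1b replicate 1 (0.162), TGFb1 + IL1b replicate 3 (0.0889), TGFb1 + TNF replicate 1 (0.123) or TGFb1 + TNF replicate 2 (0.0734), and under 5 other settings (0.0532 to 0.0791). Cdkn2b at 0.13 (95% interval -0.02 to 0.27) did not pass. Of 20 S phase and mitosis genes 15 were lower with IL1b and 1 higher, and Cdk6 stood at 66.0 ± 3.88 CPM with IL1b and 131.9 ± 1.34 CPM with TNF.

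TGFb1 + DMSO against TGFb1 measured how far groups that differ in their label by the solvent differed. Few genes moved, 6.13% of all tested (2.33% higher and 3.8% lower), but 4 of the 9 did, all lower with solvent. Ccnd1 fell by 0.65 ± 0.074 (1.57-fold, adjusted p = 1.75e-07), with libraries at 47.5 to 54.4 CPM against 76.3 to 84.1. Cdkn1a fell by 0.25 ± 0.067 (adjusted p = 0.0116), Cdkn2a by 0.22 ± 0.063 (0.0191) and Cdkn1c by 1.23 ± 0.38 (0.0434). Leaving out 1 library at a time left 1 to 3 of these calls, Ccnd1 among them each time. That of Cdkn1c was lost without TGFb1 replicate 1, where the value moved to -0.59 (0.552), without TGFb1 replicate 2 (0.0532), TGFb1 + DMSO replicate 1 (0.21) or TGFb1 + DMSO replicate 3 (0.083), and in a fit of these groups alone (0.215) or by limma voom (0.244). That of Cdkn1a was lost without TGFb1 replicate 2 (0.117), TGFb1 + DMSO replicate 1 (0.11) or TGFb1 + DMSO replicate 3 (0.0767), and that of Cdkn2a without TGFb1 replicate 1 (0.0519), TGFb1 replicate 3 (0.0611), TGFb1 + DMSO replicate 1 (0.0956) or TGFb1 + DMSO replicate 2 (0.069). None of the 10 kinases, partner cyclins, Cdkn2d and Cdc25a and none of the 13 retinoblastoma and E2F genes passed. Solvent and any unrecorded difference in handling between these groups cannot be told apart.

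Across the 21 libraries, which share the 7 treatments, Cdkn1b and Cdkn1c had a Pearson r of 0.94 in log2 CPM, Cdkn2a and Cdkn2b one of 0.87, and Cdkn1a and Cdkn1b one of -0.88. Among the D cyclins r was 0.50 for Ccnd1 and Ccnd2, 0.22 for Ccnd1 and Ccnd3 and -0.35 for Ccnd2 and Ccnd3. Cdkn2c had an r of -0.02 with Cdkn2a and -0.25 with Cdkn2b. Among 9950 candidate genes, those with the closest pattern to Ccnd1 were Cntrl, F11r and Hdgf (r = 0.958, 0.955 and 0.952), and to Ccnd2 Nmnat2, Abca5 and Znrf2 (0.961, 0.961 and 0.956). Ccnd3 was closest to Mvd and Stard4, genes of sterol synthesis and transport, and to Zdhhc9 (0.948, 0.942 and 0.945). For Cdkn1a they were Msi2, Ptprn and Ero1l (0.983, 0.982 and 0.975), for Cdkn1b Acaa2, Larp6 and Trerf1 (0.99, 0.988 and 0.987), and for Cdkn1c Vegfd, Itga1 and Cyb5a (0.97, 0.966 and 0.964). Cdkn2a was closest to Spry1, a brake on growth factor signalling, with Gcat and Mxra8 (0.972, 0.962 and 0.959). Cdkn2b was closest to Ccdc80, Gli2 and Mylk (0.933, 0.932 and 0.928), and Cdkn2c to Pim1, Ccn1 and Filip1l (0.937, 0.927 and 0.925). These values describe libraries that share their treatments and are not tests.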

How the data were processed

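Total RNA of Ly6C+/Sca-1+ mouse lung fibroblasts was extracted with a Qiagen RNeasy kit and made into TruSeq stranded total RNA libraries, per the labels' protocols. The authors deposited whole-number counts per gene, as a table of all 21 libraries and as 21 single tables, which were equal. The submitters' processing notes name GRCm38 and GRCh38 without a role. No source used here names the aligner, counter, annotation or strand setting. Reads of overlapping genes therefore cannot be assigned by strand.

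Identifiers were matched to GENCODE M21 (52489 of 52636 had a name there). Counts were fitted with edgeR 4.0.16 in R 4.3.3 (TMM factors, filterByExpr, robust quasi-likelihood fit of all 21 libraries, a mean for each of 7 groups), and p-values were adjusted by Benjamini-Hochberg over the 16197 genes tested in each comparison, two-sided. The common biological coefficient of variation was 0.0581. Standard errors were taken from the fold change and its F statistic, and 95% intervals from 14 residual degrees of freedom. The procedure was tested on simulated data. Correlations used log2 CPM with a prior count of 2. Overlapping genes were found from the exon coordinates of GENCODE M21. Near-identical transcripts (at least 95% identity over at least 300 bases) were found by alignment. Promoter windows are from RefSeq. They were found for 6 of the 9 genes.

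The genes and lists were chosen with earlier results of these data known. Of each other list, up to 4 genes past the threshold with the largest change were eligible to be named per comparison, and for each member the 3 genes most alike. Alternatives were RLE and upper quartile factors, other filters, leaving out mitochondrial and rRNA genes or single libraries, fitting only the groups compared, the other TGFb1 control, limma voom (3.58.1) and DESeq2 (1.42.0).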

Additional observations from a re-analysis of the deposited data

Results flagged for a closer look

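For 7 of the 9 genes the effect of CHIR with TGFb1 differed from that without it by a test of the difference itself. Of all 16197 genes tested, 41.2% passed the same test. On the log2 scale the effect with TGFb1 less that without was 1.51 for Cdkn2a, 1.31 for Cdkn1c, 0.54 for Ccnd1, 0.47 for Cdkn2c and 0.27 for Cdkn2b. It was -0.97 for Cdkn1a and -0.61 for Ccnd2. The values for Cdkn1c and Cdkn2b lost their calls when single libraries were left out, as given above. The test used TGFb1 + DMSO as control and was not fitted with TGFb1 without solvent. Against the latter, CHIR on TGFb1 stood at -2.20 for Ccnd1, -1.06 for Cdkn1c and 0.18 for Cdkn2b. Without TGFb1 these genes stood at -2.10, -1.14 and 0.06, so their values depend on the control. Of the 7, Cdkn2a (-0.46 without TGFb1 and 1.05 with it) and Ccnd2 (0.47 and -0.14) were the 2 called in opposite directions, but the Ccnd2 call at -0.14 was itself lost without TGFb1 + CHIR replicate 1 (adjusted p = 0.0522), TGFb1 + CHIR replicate 3 (0.191) or TGFb1 + DMSO replicate 3 (0.0877).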

How the results depend on the processing

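Of 1223 values of single genes under the alternatives, 1148 kept their direction and side of the threshold, 53 lost and 11 gained a call, and 11 changed sign. The sign changes were these. With the other TGFb1 control, CHIR on TGFb1 gave -0.08 for Cdkn1a and -1.06 for Cdkn1c, and IL1b gave 1.13 for Cdkn1c. For IL1b, Cdkn1c was also at 0.55 without TGFb1 replicate 1, 0.04 without TGFb1 + IL1b replicate 2 and 0.11 by limma voom. Without TGFb1 + DMSO replicate 1, CHIR on TGFb1 gave -0.13 for Cdkn1c. The solvent comparison gave 0.02 for Cdkn1b without TGFb1 replicate 1 and 0.01 for Cdkn2c without TGFb1 + DMSO replicate 3. The interaction of Ccnd3 was -0.01 without CHIR replicate 2 and -0.05 without TGFb1 + CHIR replicate 3. Left-out libraries gave ranges of -0.13 to 0.49 for Cdkn1c under CHIR on TGFb1 and of -0.43 to 0.55 under IL1b, of -0.07 to 0.02 for Cdkn1b and -0.09 to 0.01 for Cdkn2c under solvent, and of -0.05 to 0.14 for the Ccnd3 interaction. The cause was not tested.

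Leaving out single libraries moved the solvent comparison most, from 4 of the 9 genes to between 1 and 3 and from 993 genes in all to between 646 (without TGFb1 replicate 1) and 884. In the other 8 comparisons the counts stayed within 1.5 times. For TGFb1 + DMSO against DMSO they were 7 to 8 of the 9. No setting moved the median of all genes by over 0.1. Without TMM factors 55 of 63 group means moved by less than 1 SD and 8 by more. Depth limits Cdkn1c, at 2 to 41 counts per library with TGFb1. No paired analysis was possible because the labels number libraries singly and give no number that groups share. Those numbers run on from DMSO through TGFb1 to TGFb1 + DMSO, and from TGFb1 + IL1b to TGFb1 + TNF. Gaps lie before TGFb1 + CHIR, before TGFb1 + IL1b and before CHIR, which comes last. What the gaps stand for was not given. In comparisons across them, treatment and any unrecorded difference in handling cannot be told apart.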
